A study of Mus musculus with 39 samples.

Results

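Leukaemia cells with added miR-126 were compared with leukaemia cells lacking miR-126, both at the 4th passage through recipient mice. The comparison used 6 of the 39 arrays of the series, chosen by their sample titles, with 3 mice in each group and 1 array per mouse. Cells of both groups carried AE9a, a shortened isoform of AML1-ETO, the fusion protein that the t(8;21) translocation creates in acute myeloid leukaemia. In the added group (AE9a+miR-126) miR-126 was given together with AE9a, and in the knockout group (miR-126KO+AE9a) AE9a was given to cells lacking miR-126. In both groups CD45.1+ cells, which descend from the transplanted donor, were sorted by flow cytometry from the bone marrow of recipients at end stage, so residual host cells were selected against. AE9a leukaemia without a change in miR-126 at passage 4 (3 mice) and normal controls of passage 1 (3 mice) are given as reference levels. The labels do not state strain, age, the promoter behind added miR-126 or the number of founding donors, and nothing says that the 3 recipients of a group came from separate donors, so p-values measure the spread between recipient mice.

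MicroRNAs pair through a short seed near their 5′ end with sites in messenger RNAs, which are then translated less or degraded. miR-126 lies in an intron of Egfl7, is abundant in endothelium and in blood stem cells, and is known for high levels in core-binding factor leukaemias such as those with t(8;21). Reported targets include Spred1, Pik3r2 and Crk in growth factor signalling, Errfi1 (also called Mig6), an inhibitor of the EGF receptor, and Fzd7, a receptor for Wnt ligands. The comparison asks how late-passage leukaemias differ between the 2 ends of the miR-126 range, within the series' question of how gain and loss of miR-126 each act in this leukaemia.

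The microRNA itself is shown because the groups are defined by it. Sequences are RefSeq's on GRCm38.p6. The mature 3p strand lies at chr2:26591402-26591423 on the plus strand and is printed with its seed, bases 2 to 8, in capitals.
mmu-miR-126a-3p: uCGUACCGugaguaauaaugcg
The hairpin it is cut from lies at chr2:26591357-26591429, also on the plus strand, and is printed with the mature 3p strand in capitals.
Mir126a hairpin: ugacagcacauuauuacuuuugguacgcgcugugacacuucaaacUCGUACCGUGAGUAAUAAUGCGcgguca

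A probe set that the annotation assigns jointly to Mir126a and Egfl7 separated the groups. Its log2 level was 6.60, 6.63 and 8.59 in the 3 mice of the added group and 2.78, 2.92 and 3.15 in the knockout group. Every added mouse lay above every knockout mouse, and mouse 3 of the added group was the highest. The difference was 4.33 ± 0.51 on the log2 scale (SE of the model, n = 3 and 3; limma adjusted p = 6.33e-07 over all probe sets). In AE9a leukaemia without a change in miR-126 the level was 2.97, 2.82 and 2.79, as low as in the knockout group, so the probe set gives no check of the knockout. Egfl7 itself, read by a probe set of its own, differed by 0.04 ± 0.21 (adjusted p = 0.92), and the sign turned with the SD of the array as a covariate (-0.16). Runx1t1, whose ETO part the fusion carries, differed by 0.34 ± 0.20, which did not pass (adjusted p = 0.243).

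The spread of the arrays differed within the added group. The SD of the log2 values over all 27037 probe sets was 1.66, 1.63 and 2.01 in mice 1, 2 and 3 of the added group and 1.91, 1.91 and 2.03 in the knockout group. Mice 1 and 2 of the added group therefore stood apart from the other 4, with a narrow range of values, while mouse 3 lay among the knockout arrays. The group means were 1.77 ± 0.21 and 1.95 ± 0.07 (SD, n = 3 each), and an exact two-sided permutation test gave p = 0.3, where 0.1 is the smallest p that 3 against 3 allows. Mouse 3 correlated with mice 1 and 2 at r = 0.906 and 0.885 over all probe sets, against 0.979 between mice 1 and 2 and 0.976 to 0.990 within the knockout group. Its correlations with knockout mice 1, 2 and 3 were 0.919, 0.913 and 0.937, each above those with its own group. Over the series 8 arrays had an SD under 1.8, and those of mice 1 and 2 are called narrow here. Results were also computed with the array's SD as a covariate, and with all 8 narrow arrays left out, which leaves mouse 3 as the only added mouse at passage 4, assumed to vary like the other groups. The part of the array spread in the differences was not tested further.

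**Figure D1:**
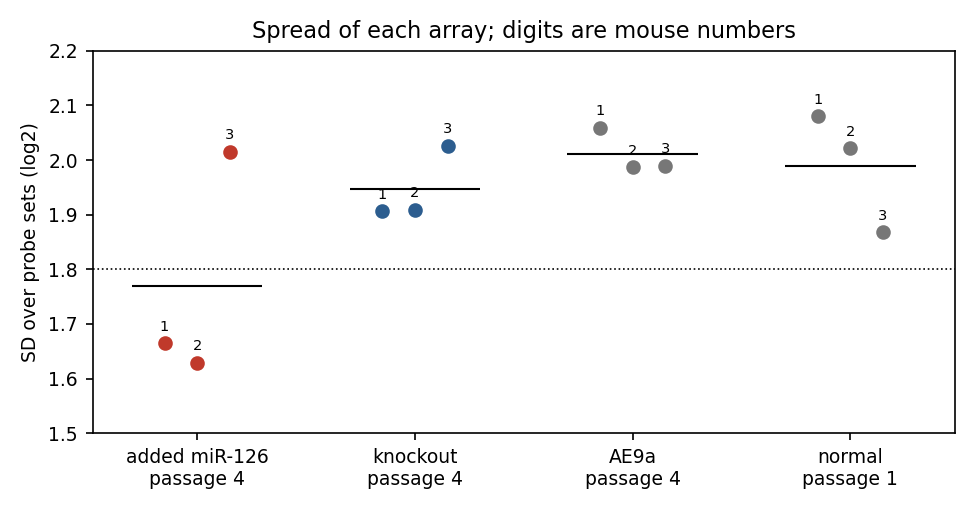
SD of the log2 values over all probe sets for each array (points, with the mouse number) and the group mean (line). The dotted line marks 1.8. Mice 1 and 2 of the added group, at 1.66 and 1.63, lie below it, and mouse 3, at 2.01, lies among the knockout arrays.

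Across 22180 genes, 2960 passed between the groups (limma, Benjamini-Hochberg adjusted p under 0.05), which is 13.3% of the genes tested. Of these, 1120 were higher with added miR-126 (5.05% of genes) and 1840 were lower (8.3%). At least 2-fold differences made up 423 of the rises and 1322 of the falls. The values of the 2 groups did not overlap for 4672 genes (21.1%), of which 2387 also passed. The balance of directions differed between fits. Higher genes were 37.8% of those that passed on all arrays, 53.3% with the SD as a covariate (1217 higher, 5.49% of genes, and 1067 lower, 4.81%) and 65.7% without the narrow arrays (1365 higher, 6.15%, and 712 lower, 3.21%), a fit that also leaves out 2 of the 3 added mice. With all arrays scaled to a common SD it was 35.5% (977 higher and 1776 lower). A fit on the 6 compared arrays alone gave 1087 genes, 189 higher and 898 lower. The median difference over all genes was 0.10 on all arrays, 0.04 with the covariate and 0.01 without the narrow arrays. A core of 1014 genes passed in the same direction in all 3 fits, 405 higher and 609 lower. Leaving out mouse 3 of the added group alone gave 8327 genes, and leaving out mouse 3 of the knockout group gave 1493.

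The 15 largest rises with added miR-126 ran from 8.57-fold to 55.4-fold. Tmem178, a membrane protein of the endoplasmic reticulum, led them. Its log2 level was 10.19, 10.13 and 11.56 in the added group and 5.31, 4.95 and 4.26 in the knockout group. The groups were far apart, with no added mouse near any knockout mouse. The difference was 5.79 ± 0.53, or 55.4-fold (adjusted p = 5.88e-09).

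Dscam, an immunoglobulin-family adhesion protein known from neurons, read 9.98, 9.39 and 10.39 against 5.09, 5.05 and 4.95, a 29.7-fold difference. Gria3, a subunit of AMPA-type glutamate receptors, read 10.57, 10.78 and 11.51 against 6.38, 5.71 and 7.15, or 23.3-fold. Both genes were high in every added mouse, and Gria3 varied more among the knockout mice than Dscam did. Ncam1, the neural cell adhesion molecule known as CD56, rose 9.99-fold, and it was the only one of the 15 largest rises that had also passed at passage 1 (a difference of 2.10 there). Stag3, a cohesin subunit of meiosis, rose 14.4-fold. Rbm24, an RNA-binding regulator of splicing in muscle, rose 10.1-fold. Cnn3, an actin-binding calponin, rose 11.7-fold, and Tns1, a tensin of focal adhesions, rose 8.57-fold.

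The immune genes among the rises were of several kinds. Cd163, the haemoglobin scavenger receptor of macrophages, read 8.36, 8.29 and 10.73 against 5.15, 4.74 and 4.84, an 18.6-fold rise. Cst7, which encodes the protease inhibitor cystatin F, read 11.22, 10.89 and 11.89 against 7.50, 6.86 and 7.42, or 16.8-fold. Both were higher in each added mouse than in any knockout mouse. Il12a, a subunit of interleukin-12, rose 10.8-fold, Clec2m, of a family of C-type lectins, 14.8-fold, and Muc13, a membrane mucin, 10.5-fold. Pyroxd2, an oxidoreductase, rose 9.39-fold, and Ctsg is described with the granule genes. In all 15 the level in mouse 3 was the highest of the added group, and for all 15 every added mouse lay above every mouse of plain AE9a leukaemia at passage 4. All 15 passed with the covariate and without the narrow arrays.

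**Figure D2:**
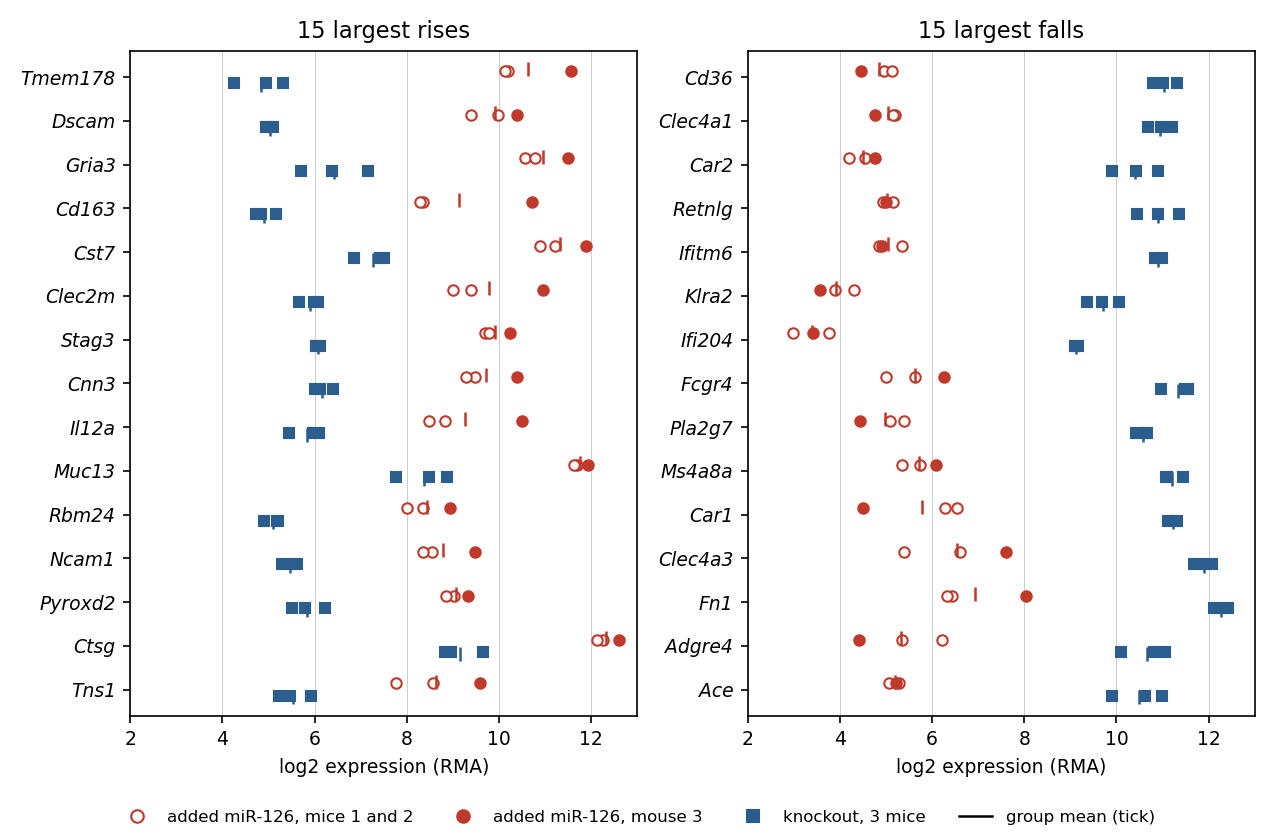
RMA log2 expression of the 15 largest rises (left) and 15 largest falls (right) in each mouse at passage 4; circles are added miR-126, open for the narrow arrays of mice 1 and 2 and filled for mouse 3, squares are knockout and ticks are group means. The groups do not overlap for any of the 30 genes, and for Tmem178 the means are 5.79 apart.

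The 15 largest falls were steeper than the rises. Their folds ran from 39.5 to 72.9, and 13 of the 15 also changed between passages 1 and 4, beside 3.55% of all genes. The 15 were picked for their passage 4 differences, which enter that change. Cd36, the scavenger receptor for fatty acids and lipoproteins, read 4.96, 5.14 and 4.46 with added miR-126 and 10.80, 11.31 and 11.01 in the knockout group. The added levels lay below the medians of their own arrays (5.42 to 5.67) and the knockout levels far above theirs. The fall was 6.19 ± 0.67 on the log2 scale, or 72.9-fold (adjusted p = 1.24e-07).

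Several encode surface receptors of myeloid cells. The lectins Clec4a1 and Clec4a3, of the dendritic cell immunoreceptor family, fell by 5.92 and 5.37. Fcgr4, an activating receptor for IgG, read 5.63, 5.01 and 6.25 against 10.97, 11.54 and 11.49, and fell by 5.71. Adgre4, an adhesion receptor of the EMR family, fell by 5.33, and Klra2, a lectin-like receptor of the Ly49 family, by 5.78. Ms4a8a, a membrane-spanning protein found on macrophages, fell by 5.49. The secreted or ectoenzyme genes were Pla2g7, the hydrolase of platelet-activating factor (a fall of 5.60), Ace, the angiotensin-converting enzyme (5.30), and Fn1, fibronectin (5.34). Ifi204, an interferon-inducible DNA sensor, read 3.77, 2.98 and 3.42 against 9.16, 9.10 and 9.10, and fell by 5.73. Ifitm6, of the interferon-induced membrane proteins, fell by 5.86. All 15 falls passed with the covariate and without the narrow arrays. For 14 of the 15 every plain AE9a mouse at passage 4 read above every added mouse, the exception being Car1.

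Genes of mature neutrophils were lower as a group. Of 24 measured genes, 17 fell, 0 rose (0 also at an unadjusted p under 0.05 in limma) and 7 did not pass, against 8.3% of all genes that fell, and the median difference was -2.90 against 0.10 over all genes. With the covariate 16 fell, where 4.81% of all genes did. Without the narrow arrays the median was -2.55. The mean level of the list was 6.35, 6.30 and 6.38 in the added mice and 9.21, 9.33 and 8.70 in the knockout mice. In a bulk measurement, fewer cells of a type and less RNA per cell cannot be told apart.

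Retnlg, a resistin-like protein made by neutrophils, read 4.93, 5.14 and 4.99 with added miR-126 against 10.90, 11.36 and 10.44. No added mouse came near a knockout mouse, and the narrow arrays and mouse 3 gave similar levels. It fell by 5.88 ± 0.62, or 58.7-fold (adjusted p = 8.28e-08). Ngp, a protein of neutrophil granules, had the smallest adjusted p of the list and read 7.52, 8.42 and 8.50 against 11.66, 11.73 and 11.27, a fall of 3.41 ± 0.30 (adjusted p = 4.59e-09). Ltf, the lactoferrin of secondary granules, read 5.38, 5.93 and 4.86 against 10.38, 10.59 and 9.53, a fall of 4.78. All 3 were low in each added mouse. Itgam, the CD11b integrin chain of myeloid cells, fell by 4.21, and Chil3, a chitinase-like secreted protein, by 3.51 (a difference of -2.22 without the narrow arrays). The cathelicidin gene Camp and the neutrophil surface marker Ly6g, picked after their values were seen, differed by -3.86 and -3.71 and passed. Mmp8, a list member picked in the same way, did not pass and stayed high in both groups. It read 11.27, 10.93 and 11.67 against 11.51, 11.40 and 11.26, a difference of -0.10 (limma adjusted p = 0.854). Camp read 4.90, 4.94 and 6.92 against 9.90, 9.81 and 8.63, and without the narrow arrays its difference was -2.53 and did not pass (adjusted p = 0.12).

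Ngp, Ltf and Retnlg were all lower at passage 4. At passage 3, given without a test, their differences were -0.55, -1.42 and 0.87. Their promoters are shown because these genes belong to 1 programme of late granulocyte maturation, which factors of the C/EBP family are known to drive. Each is RefSeq's 250 bases before the gene's start on GRCm38.p6, printed 5′ to 3′ on the gene's strand, with matches to the C/EBP half-site pair TTGCNNAA on either strand in capitals. Ngp lies at chr9:110419558-110419807, Ltf at chr9:111019042-111019291 and Retnlg at chr16:48872358-48872607, all on the plus strand. The genes were picked after their values were seen.
Ngp promoter: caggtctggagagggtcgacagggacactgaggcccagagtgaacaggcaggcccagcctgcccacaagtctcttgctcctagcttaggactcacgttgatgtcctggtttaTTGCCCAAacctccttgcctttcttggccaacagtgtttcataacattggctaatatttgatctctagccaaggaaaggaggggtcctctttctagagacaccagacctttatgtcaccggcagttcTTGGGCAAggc
Ltf promoter: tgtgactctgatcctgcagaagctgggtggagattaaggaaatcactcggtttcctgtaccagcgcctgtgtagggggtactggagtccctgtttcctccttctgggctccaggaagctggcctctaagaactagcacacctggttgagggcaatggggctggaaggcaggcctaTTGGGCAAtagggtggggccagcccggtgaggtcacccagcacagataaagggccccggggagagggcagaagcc
Retnlg promoter: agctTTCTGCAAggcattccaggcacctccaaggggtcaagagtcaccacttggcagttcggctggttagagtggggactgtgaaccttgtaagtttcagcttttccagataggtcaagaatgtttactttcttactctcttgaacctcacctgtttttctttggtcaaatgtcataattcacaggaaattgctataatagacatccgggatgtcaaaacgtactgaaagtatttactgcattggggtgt
Ngp holds 2 matches, 138 to 131 and 11 to 4 bases before the start, Ltf holds 1 at 75 to 68 and Retnlg 1 at 246 to 239. Of the 32851 RefSeq promoters, 9.56% hold at least 1 match in this window, and 7 of the 24 genes of the neutrophil list with a promoter there do (29.2%). The first share counts promoters. The second counts genes, with a match in any promoter of the gene, so the shares are not of the same unit. A match is a description of letters and no evidence of binding.

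The monocyte and macrophage list was lower too, with exceptions. Of 25 measured genes 12 fell (8.3% of all genes did), 1 rose and 12 did not pass, with a median of -1.43. With the covariate 11 fell, where 4.81% of all genes did. Without the narrow arrays the median was -1.002. Adgre1, the F4/80 antigen of macrophages, read 6.18, 6.62 and 5.02 against 10.45, 10.92 and 11.02. The groups did not meet, and mouse 3 of the added group was the lowest. It fell by 4.85 ± 0.50 (adjusted p = 5.54e-08). Vcan, the proteoglycan versican of classical monocytes, fell by 4.69. Lyz2, lysozyme M of monocytes and neutrophils, fell by 2.36 and by 1.17 without the narrow arrays. Csf1r, the receptor for M-CSF, read 8.29, 8.18 and 9.67 against 10.44, 10.88 and 10.69, a fall of 1.95, but its difference was -1.002 and did not pass without the narrow arrays (adjusted p = 0.28). Cd163 was the member that rose.

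Several antigen presentation genes fell. In the list of MHC class II and dendritic genes 5 of 15 fell, beside 8.3% of all genes, and 1, Flt3, rose, with a median of -0.15 that was -0.53 without the narrow arrays. H2-Aa, the alpha chain of I-A, read 4.06, 4.68 and 4.68 with added miR-126 and 9.18, 9.29 and 9.75 in the knockout group. All added mice were low, and it fell by 4.94 ± 0.62 (adjusted p = 1.53e-06). Its partner H2-Ab1 fell by 4.77, the beta chain H2-Eb1 by 2.24, the peptide-loading subunit H2-DMa by 2.14 and the CD11c integrin Itgax by 2.34. Plain AE9a leukaemia read 10.31 to 10.46 for H2-Aa.

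Inflammatory cytokine genes were among the falls. Of 21 measured immediate early and NF-kappaB feedback genes 5 fell, 0 rose and 16 did not pass, where 8.3% of all genes fell. The list's median was -0.20, and turned to 0.06 with the covariate and to 0.19 after cyclic loess. Il1b, interleukin-1 beta, read 6.90, 6.31 and 4.67 against 11.44, 11.68 and 10.65, a fall of 5.30. All added mice were low, and mouse 3 was the lowest. Cxcl2, a neutrophil-attracting chemokine, fell by 4.58, Nr4a1, an orphan nuclear receptor induced early on stimulation, by 3.07 and Tnfaip3, the A20 inhibitor of NF-kappaB, by 1.76. Il1a fell by 3.22, and that call was lost without mouse 2 of the knockout group (a difference of -2.45).

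Interferon response genes were lower at passage 4 and had been lower at passage 1. Of 25 measured genes 9 fell and 0 rose at passage 4, against 8.3% and 5.05% of all genes, with a median of -0.69. With the covariate 5 fell and 1 rose, where 4.81% and 5.49% of all genes did. Without the narrow arrays the median was -0.91. At passage 1, 10 of the 25 fell with a median of -1.62, where 0.433% of all genes fell. Usp18, a protease that removes ISG15, read 6.35, 5.50 and 6.14 against 8.88, 7.77 and 8.83. The groups did not meet, and Usp18 fell by 2.50 ± 0.48 (adjusted p = 5.26e-04). At passage 1 it had fallen with a difference of -3.98. Oas2, an oligoadenylate synthetase, fell by 2.46, and the RNA sensors Ddx58 (RIG-I) and Ifih1 (MDA5) fell by 1.72 and 2.37.

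Red cell genes were lower as a group. Of 14 measured genes 13 fell and 0 rose, against 8.3% and 5.05% of all genes, with a median of -1.34. With the covariate 10 fell, beside 4.81% of all genes, and without the narrow arrays the median was -1.54. The mean level of the list was 5.40, 5.46 and 5.13 in the added mice and 7.32, 7.15 and 7.77 in the knockout mice. In plain AE9a leukaemia at passage 4 it was 7.78, 6.17 and 5.74, so those mice varied widely. In the normal controls it was 7.93, 7.32 and 7.52. Car2 and Car1, carbonic anhydrases abundant in the erythroid lineage, led the falls of the list. Car2 read 4.19, 4.55 and 4.75 against 10.42, 9.90 and 10.91, a fall of 5.91 ± 0.80. Car1 read 6.53, 6.28 and 4.50 against 11.32, 11.13 and 11.25, a fall of 5.46, and it had already fallen by 4.51 at passage 1. Both separated the groups by several log2 units. Ermap, an erythroblast membrane protein, fell by 3.52 and Rhag, the Rh-associated glycoprotein, by 3.45.

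Mast cell and basophil genes did not move together. Of 16 measured genes 3 fell and 1 rose, against 8.3% and 5.05% of all genes. Mcpt8, a protease that marks basophils, read 7.40, 7.31 and 9.24 with added miR-126 and 5.22, 4.96 and 4.78 in the knockout group, a rise of 3.00 ± 0.50. Each added mouse was above each knockout mouse. Ms4a2, the beta chain of the IgE receptor, fell by 3.86, Hdc, the enzyme that makes histamine, by 2.75 and Cpa3, the mast cell carboxypeptidase, by 2.55. Cpa3 read 7.84, 5.47 and 9.05 in the knockout mice, and its call was lost with the covariate (-2.41), without the narrow arrays (-2.90) and without mouse 3 of the knockout group (-1.75).

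Several progenitor genes were higher with added miR-126. In the stem and progenitor list 5 of 26 measured genes rose, 2 fell and 19 did not pass, where 5.05% of all genes rose and 8.3% fell. The median was 0.03 (-0.02 with the covariate) beside 0.10 over all genes. Myb, a transcription factor of immature blood cells, read 12.26, 12.31 and 11.94 against 9.26, 8.67 and 9.54. The added mice were close together and all above the knockout mice. The rise was 3.01 ± 0.41, or 8.06-fold (adjusted p = 4.66e-06). Plain AE9a leukaemia read 9.55 to 9.91.

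Cd34, the progenitor surface antigen, read 9.01, 9.75 and 10.72 against 6.87, 6.75 and 6.92, a rise of 2.98 ± 0.51. Sox4, a transcription factor of early progenitors, rose by 1.92 (2.99 without the narrow arrays) and Myc by 1.46. Flt3, a cytokine receptor of multipotent progenitors, rose by 2.10. For Sox4 the mean of plain AE9a leukaemia at passage 4 was 8.44 (7.59 to 8.88), above the added mean of 6.61. For Myc plain AE9a read 8.57 to 8.89 and overlapped the added mice (8.83 to 9.79). For Cd34 (7.04 to 8.51) and Flt3 (6.62 to 7.85) plain AE9a lay below every added mouse. The rises of Myb, Cd34, Sox4, Myc and Flt3 passed with the covariate and without the narrow arrays. Flt3 did not pass when mouse 1 or 2 of the added group or mouse 1 or 3 of the knockout group was left out (differences of 1.95 to 2.25), and Sox4 did not without mouse 3 of the knockout group (1.71). The homeobox cofactors Meis1 and Pbx3 fell by 0.87 and 1.33. Neither passed without the narrow arrays (-0.96 and -0.91), and Meis1 also lost its call with the covariate (-0.79) and without mouse 2 of the added group (-0.82) or mouse 1 or 3 of the knockout group (-0.84 and -0.78).

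Primary granule genes are expressed at the promyelocyte stage, before those of the secondary granules. The list used here also held the transcription factors Gfi1 and Cebpe and the chaperones Calr and Hsp90b1. Its counts are therefore not of granule proteins alone. Of 13 measured genes 3 rose, 0 fell and 10 did not pass, where 5.05% of all genes rose and 8.3% fell. The median was 0.30. It was 0.65 with the covariate, where 6 rose beside 5.49% of all genes, and 0.78 without the narrow arrays. Ctsg, cathepsin G, read 12.26, 12.12 and 12.61 against 9.66, 8.84 and 8.95. Added mice were uniformly high, and the rise was 3.18 ± 0.58, or 9.05-fold (adjusted p = 2.67e-04). Prss57, a neutrophil serine protease, rose by 1.36 (2.45 without the narrow arrays) but did not pass without mouse 3 of the added group (0.82) or mouse 3 of the knockout group (1.30). Gfi1, a repressor needed for granulocyte formation, rose by 1.32 (2.03 without the narrow arrays) and did not pass without mouse 3 of the knockout group (1.17). Plain AE9a leukaemia at passage 4 read 9.69 to 11.01 for Ctsg, below every added mouse. For Gfi1 it read 6.53 to 7.86 and for Prss57 6.56 to 7.09. Those ranges overlapped the added mice, at 6.80 to 7.89 and 6.83 to 8.62. Mpo, myeloperoxidase, read 10.66, 10.19 and 11.43 against 9.85, 9.38 and 8.99, and its difference of 1.35 did not pass (adjusted p = 0.0796), though it did with the covariate (1.81). At an unadjusted p under 0.05, 5 genes of the list were higher and 1 was lower. The lower one was Elane, neutrophil elastase, named after its values were seen. It read 9.14, 7.97 and 10.52 against 10.71, 10.54 and 9.98, so the groups overlapped, and its difference of -1.20 ± 0.56 did not pass (adjusted p = 0.148). That difference was -0.62 with the covariate and 0.11 on mouse 3 alone, without the narrow arrays.

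The promoter of Ctsg is shown beside the rise of Myb, since MYB is known to act on genes of the promyelocyte stage. It is RefSeq's 250 bases before the start, chr14:56102575-56102824 on GRCm38.p6, minus strand, with matches to CNGTTG on either strand in capitals, and it was picked after the values were seen.
Ctsg promoter: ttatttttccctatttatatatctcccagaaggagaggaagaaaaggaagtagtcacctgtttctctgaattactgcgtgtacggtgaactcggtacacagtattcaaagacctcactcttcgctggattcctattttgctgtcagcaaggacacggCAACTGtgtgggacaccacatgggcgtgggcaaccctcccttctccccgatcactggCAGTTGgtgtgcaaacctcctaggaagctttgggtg
Matches lie 93 to 88 and 36 to 31 bases before the start. A match stood in 29.3% of all promoters, so the motif is common. Of the 11 genes of the primary granule list with a promoter among them, 6 held a match in any promoter of the gene (54.5%). That share counts genes and the first counts promoters.

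Transcription factors of myeloid cells gave more falls than rises. In the list of 14 measured myeloid factors 5 fell and 1, Gfi1, rose. Falls outnumbered rises over all genes too, at 8.3% and 5.05%. Bcl6, a repressor expressed in mature myeloid and germinal centre cells, read 5.75, 5.86 and 5.94 against 8.38, 8.63 and 9.34, a fall of 2.94 ± 0.51 (adjusted p = 1.35e-04). The added mice were within a narrow range far below the knockout mice. Id2, an inhibitor of E proteins, fell by 2.22, Maf, a factor of macrophages, by 1.97, Cebpb, a C/EBP factor of mature myeloid cells, by 1.47 and Spi1, which encodes PU.1, by 1.26 (a difference of -0.68 without the narrow arrays). All 5 kept their direction without the narrow arrays and passed with the covariate. In the covariate fit 5 of the list fell and 2 rose, beside 4.81% and 5.49% of all genes. Cebpe, another C/EBP factor of the list, was picked after its values were seen. It differed by -0.91 without overlap and did not pass (limma adjusted p = 0.315).

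Lymphoid genes gave few calls, beside 5.05% of all genes that rose and 8.3% that fell. Of 17 measured B cell genes 2 rose and 1 fell, and both rises are genes of early B cell development. Igll1, a surrogate light chain, read 7.15, 6.77 and 8.95 against 4.71, 4.83 and 4.62, a rise of 2.90. Dntt, terminal deoxynucleotidyl transferase, read 5.32, 6.01 and 9.13 against 4.69, 4.35 and 4.42. Its rise was 2.33, and 1.18 without mouse 3 of the added group and 4.65 on mouse 3 alone. Cd79a, part of the B cell receptor, fell by 1.75, without passing with the covariate (-1.59), without the narrow arrays (-2.08) or without mouse 3 of the knockout group (-1.62). Of 18 T and NK cell genes Klrb1c, the NK1.1 receptor, rose by 2.02 and Ccl5, a chemokine, fell by 2.36. Of 12 megakaryocyte genes only Itgb3, the integrin beta 3 chain, rose, by 0.93, and it did not pass when any of mice 1, 2 and 3 of the added group or 1 and 2 of the knockout group was left out (0.69 to 1.03).

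Markers of blood cells as a whole were present but lower. Of 10 haematopoietic identity genes 6 fell and 0 rose, against 8.3% and 5.05% of all genes, with a median of -0.87 (-0.41 without the narrow arrays). With the covariate 3 fell, beside 4.81% of all genes. Ptprc, the CD45 gene by which cells were sorted, read 10.04, 10.11 and 10.21 against 10.96, 11.18 and 11.23. Every mouse was high, and the added group was lower by 1.01 ± 0.28 (adjusted p = 0.0159), which did not pass with the covariate (-0.58) or when mouse 1 or 2 of the added group or 2 or 3 of the knockout group was left out (-0.954 to -1.001). Cd52, a surface peptide of leukocytes, had the smallest adjusted p of the list and fell by 2.37 (-1.30 without the narrow arrays). Of 20 stroma and endothelium genes 0 passed in limma (at an unadjusted p under 0.05, 3 were higher and 0 lower), with mean levels of 5.18 to 5.49 in the added mice and 5.13 to 5.27 in the knockout mice. Their part in the differences was not tested.

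Some of the reported targets of miR-126 fell, and most did not pass. Of 24 measured targets 6 fell, 0 rose and 18 did not pass, against 8.3% of all genes that fell, and the median was -0.21. With the covariate 4 fell, where 4.81% of all genes did, and the median was -0.00. Without the narrow arrays the median was 0.04. In each of these fits 1 target rose, Pik3r2, a regulatory subunit of PI3 kinase, named here after its values were seen. It read 6.53, 6.47 and 7.203 against 6.34, 6.37 and 6.46, without overlap, and its difference of 0.35 ± 0.19 did not pass on all arrays (adjusted p = 0.227). The difference was 0.67 with the covariate (adjusted p = 0.0022) and 0.81 without the narrow arrays (adjusted p = 0.0379). The list's members were gathered from work in several tissues, so not all need be targets in myeloid cells.

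Fzd7 had the smallest adjusted p of the targets. It read 5.14, 5.04 and 6.15 with added miR-126 and 6.60, 6.97 and 7.14 in the knockout group, with no overlap and mouse 3 nearest to the knockout mice. The fall was 1.46 ± 0.24, or 2.76-fold (adjusted p = 7.04e-05). It was 1.22 with the covariate and passed, but without the narrow arrays the difference was -0.76 and did not (adjusted p = 0.1).

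Spred1, which restrains RAS signalling to ERK, read 6.97, 6.27 and 7.82 against 7.79, 8.20 and 8.65. Mouse 3 of the added group overlapped the knockout mice. The fall was 1.20 ± 0.37 (adjusted p = 0.0291), and the call was lost with the covariate (-0.99), without the narrow arrays (-0.40), and without mouse 1 or 2 of the added group or 2 or 3 of the knockout group (-0.82 to -1.20). Errfi1 read 8.67, 9.05 and 6.79 against 9.31, 9.77 and 8.29, with mouse 3 far below the other added mice. Its difference of -0.95 ± 0.52 did not pass (adjusted p = 0.215), while without the narrow arrays, on mouse 3 alone, it was -2.33 and passed (adjusted p = 0.0022).

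The other falls among reported targets were Klf10, a factor induced by TGF-beta (1.52), Crk, an adaptor protein (1.23), Adam9, a membrane protease (1.14), and Tom1, a protein of endosomal sorting (1.33). Klf10 and Adam9 passed with the covariate and without the narrow arrays. Crk passed with the covariate (-0.79) and did not without the narrow arrays (-0.63). Tom1 passed in neither (-0.55 and -0.56) and lost its call whenever any 1 of mice 1 and 2 of the added group or the 3 knockout mice was left out (-1.12 to -1.38).

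**Figure D3:**
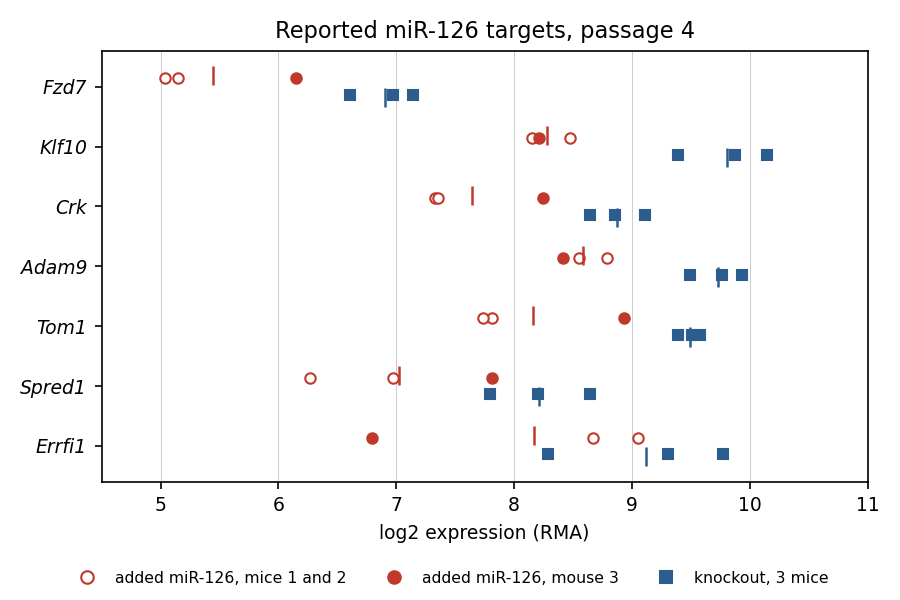
RMA log2 expression at passage 4 of the 6 reported miR-126 targets that fell and of Errfi1, in each mouse; circles are added miR-126, open for the narrow arrays of mice 1 and 2 and filled for mouse 3, squares are knockout and ticks are group means. Mouse 3 lies nearest to the knockout mice for Fzd7, Crk, Tom1 and Spred1 and farthest for Adam9 and Errfi1.

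Of the Wnt pathway, 31 genes were measured, of which 2 rose and 4 fell, against 5.05% and 8.3% of all genes. The median was 0.10, and -0.02 with the covariate, beside 0.10 over all genes. Tcf7l2, a DNA-binding partner of beta-catenin, read 4.98, 5.42 and 5.27 against 8.18, 8.82 and 8.63, a fall of 3.32 ± 0.52 (adjusted p = 3.46e-05). All added mice were low. Among receptors, Fzd4 fell by 1.10 beside Fzd7. Gsk3b, a kinase of the beta-catenin destruction complex, fell by 1.17 but differed by -0.26 without the narrow arrays, and its call was also lost with the covariate (-0.50), without mouse 1 or 2 of the added group (-0.84 and -1.05) and without mouse 3 of the knockout group (-1.09). Znrf3 and Rnf43, ligases that remove Frizzled receptors from the membrane, rose by 1.09 and 0.68. Rnf43 did not pass without mouse 2 of the added group (0.68) or mouse 2 or 3 of the knockout group (0.64 and 0.62).

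Growth factor signalling genes differed less at the median without the narrow arrays. Of 15 measured RAS and growth factor genes 7 fell and 1, Flt3, rose, against 8.3% and 5.05% of all genes. The median was -0.60. With the covariate 4 fell, where 4.81% of all genes did, and the median was -0.30. Without the narrow arrays the median was -0.15. Braf, a kinase that phosphorylates MEK, fell by 1.21 and kept its call there (-0.98). Grb2, an adaptor to SOS, and Map2k1, which encodes MEK1, fell by 0.99 and 1.31 and did not (-0.42 and -0.28). Both passed with the covariate, at -0.60 and -0.72. Map2k1 was also lost without mouse 1 of the added group (-1.003). Of 15 ERK feedback genes Spred1 fell and Spred3, its relative, rose by 0.72, a call lost without the narrow arrays (0.87) and without mouse 2 of the added group (0.67).

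Lists of growth and metabolism differed between fits. On all arrays 5.05% of all genes rose and 8.3% fell. Of 28 cell cycle genes 0 rose and 1 fell, and the median was -0.43, while without the narrow arrays it was 0.55. It was 0.21 with the covariate and -0.37 with arrays scaled to a common SD. The gene that fell was Ccnb2, cyclin B2, whose fall of 1.29 was lost in the same fit (-0.15), with the covariate (-0.54), and without mouse 1 or 2 of the added group or 1 or 3 of the knockout group (-0.78 to -1.23). Of 21 MYC and ribosome biogenesis genes 1 rose, Myc itself, with a median of 0.36. With the covariate 6 rose, beside 5.49% of all genes. Without the narrow arrays the median was 0.95. Of 20 oxidative phosphorylation genes only Sdhb, a subunit of complex II, fell. The list's median was -0.33 on all arrays and -0.14 with arrays scaled, and it turned to 0.06 after cyclic loess, 0.22 with the covariate and 0.48 without the narrow arrays. The fall of Sdhb by 0.93 was lost with the covariate (-0.39), turned to 0.06 without the narrow arrays, was lost without mouse 1 or 2 of the added group or 1 or 3 of the knockout group (-0.66 to -0.98) and was larger without mouse 3 of the added group (-1.43). Of 9 housekeeping genes 0 passed in limma (1 was lower at an unadjusted p under 0.05), with a median of -0.14 (0.29 after cyclic loess).

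**Figure D4:**
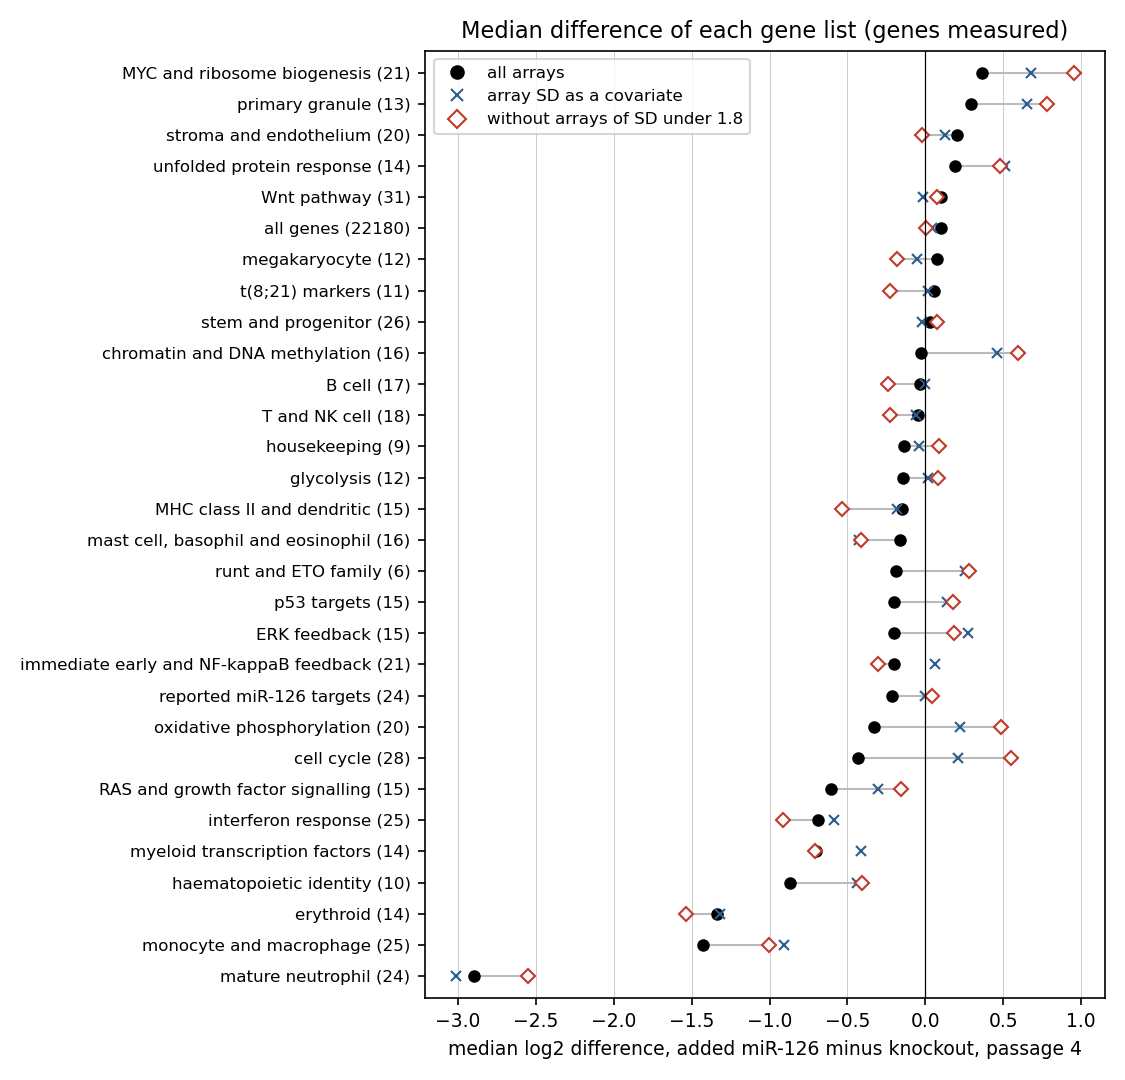
Median log2 difference, added miR-126 minus knockout at passage 4, of each gene list (number of genes measured in brackets) on all arrays (circles), with array SD as a covariate (crosses) and without arrays of SD under 1.8 (diamonds). The neutrophil, monocyte and erythroid medians stay below -0.9 in all 3, while the cell cycle median goes from -0.43 to 0.55.

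Other lists gave few calls, where 5.05% of all genes rose and 8.3% fell. Of 15 p53 targets Pmaip1, the BH3-only protein NOXA, rose by 1.65 and Fas, a death receptor, fell by 1.99. Pmaip1 did not pass without mouse 1 of the knockout group (1.50). Of 12 glycolysis genes Pgam1 rose by 0.92, while Hk2, a hexokinase, fell by 1.44 and Slc2a1, the glucose transporter GLUT1, by 0.99. Hk2 did not pass without the narrow arrays (-0.72).

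Asns, asparagine synthetase, was the only one of 14 unfolded protein response genes to fall (1.63), which was lost with the covariate (-1.44), without the narrow arrays (-1.48), without mouse 1 or 2 of the added group (-1.60 and -1.59) and without mouse 3 of the knockout group (-1.47). On all arrays 0 of the 14 rose in limma (3 were higher at an unadjusted p under 0.05). With the covariate 4 rose, beside 5.49% of all genes. After cyclic loess 5 rose, after quantile normalization 3, and with arrays scaled to a common SD 5. Over all 22180 genes those fits gave, in that order, 1268, 1343 and 977 rises. Of 11 markers reported for t(8;21) leukaemia Ubash3b, a phosphatase, fell by 1.73 and Siglec1, a sialic acid receptor of macrophages, by 1.38. Ubash3b did not pass without the narrow arrays (-1.04), and Siglec1 did not without mouse 1 of the added group (-1.29) or mouse 3 of the knockout group (-1.17). Of 16 chromatin genes Tet1 rose by 0.58 and Ezh1 fell by 0.47. Both calls were lost with the covariate (0.47 and -0.28) and without the narrow arrays (0.23 and -0.15). Tet1 was also lost without mouse 1 or 2 of the added group or 2 or 3 of the knockout group (0.46 to 0.57), and Ezh1 without mouse 1 or 2 of the added group or 1 or 3 of the knockout group (-0.33 to -0.46). Of the 6 runt and ETO family genes 0 passed in limma (1 was lower at an unadjusted p under 0.05), and Runx1 differed by -0.45 (0.28 without the narrow arrays).

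Fewer genes passed at passage 1. The same 2 groups at passage 1, with 3 mice each, differed in 129 genes (0.582%), 33 higher and 96 lower (0.433%). Of these, 45 also passed in the same direction at passage 4, which is 34.9% of the passage 1 list and 1.52% of the passage 4 list, and 42 of the 45 were lower. A further 6 passed in opposite directions at the 2 passages, among them Tnfaip3 (1.36 at passage 1 and -1.76 at passage 4). No array at passage 1 had an SD under 1.8. The probe set annotated to Mir126a and Egfl7 read 8.48, 8.27 and 8.18 in the added mice at passage 1. Its added mean was 8.31 there and 7.28 at passage 4, with knockout means of 2.93 and 2.95. Its change between passages was not tested. The change of the difference from passage 1 to passage 4 was itself tested, and 788 genes passed (3.55%), 186 upward and 602 downward. The balance was 166 upward and 565 downward with arrays scaled to a common SD, 365 and 414 with the SD as a covariate, and 635 and 437 without the narrow arrays. Of the genes that passed at passage 4, 713 (24.1%) also passed in the change, and for the others a change between passages was not shown.

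The mean of Tmem178 in the added group was 5.15, 6.95, 9.09 and 10.63 at passages 1 to 4, while the knockout group stayed between 4.80 and 5.01. The difference changed by 5.65 (adjusted p = 1.9e-05). Clec2m went from 5.80 to 9.79 in the added group and Stag3 from 5.95 to 9.91, with knockout means of 5.65 to 6.07 at both ends. The change was 3.74 for Clec2m and 3.65 for Stag3, and it was 3.42 for Cst7 and 3.31 for Rbm24. Myb already read high at passage 2, with added means of 8.77, 11.55, 12.16 and 12.17, against knockout means of 7.58, 9.48, 8.71 and 9.16. Its change of 1.82 did not pass (adjusted p = 0.079).

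Neutrophil genes differed in the passage at which the added group first read low. Passages 2 and 3 are given as levels without a test, and all 3 added arrays of passage 3 are narrow (SD of 1.43 to 1.71). Retnlg averaged 11.59, 12.08 and 10.74 in the added group at passages 1, 2 and 3, above the knockout means of 10.39, 9.30 and 9.88, and then 5.02 at passage 4 against 10.90. All mice of passage 4 lay below all of passage 3. The difference changed by -7.08, the largest among the named genes (adjusted p = 8.1e-06). Chil3 averaged 11.89, 11.50, 8.44 and 8.47 in the added group, so it already read low at passage 3, against a knockout mean of 11.43 there. Ltf averaged 11.22, 10.84, 8.01 and 5.39 in the added group and Itgam 10.60, 9.18, 6.98 and 6.24. The changes of Ltf and Itgam were -6.13 and -4.43. The neutrophil list as a whole had a median difference of 1.00 at passage 1, with 0 of 24 genes passing.

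Other downward changes were Ifitm6 (a change of -6.56), Il1b (-6.17) and Cxcl2 (-5.96). Scrg1, a small secreted protein first found in scrapie-infected brain, averaged 8.14 in the added group and 5.46 in the knockout group at passage 1 and 4.41 and 7.96 at passage 4, so its order turned (-6.23). Tph1, which makes serotonin, averaged 9.42 in the knockout group at passage 1 and 5.86 at passage 4, with 4.71 and 4.91 in the added group, so the upward change of 3.77 came from the knockout side. At passage 4 its difference was -0.94 and did not pass (adjusted p = 0.345). Usp18 and Car1, by contrast, were lower in the added group at both ends, and their changes of 1.49 and -0.95 did not pass.

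**Figure D5:**
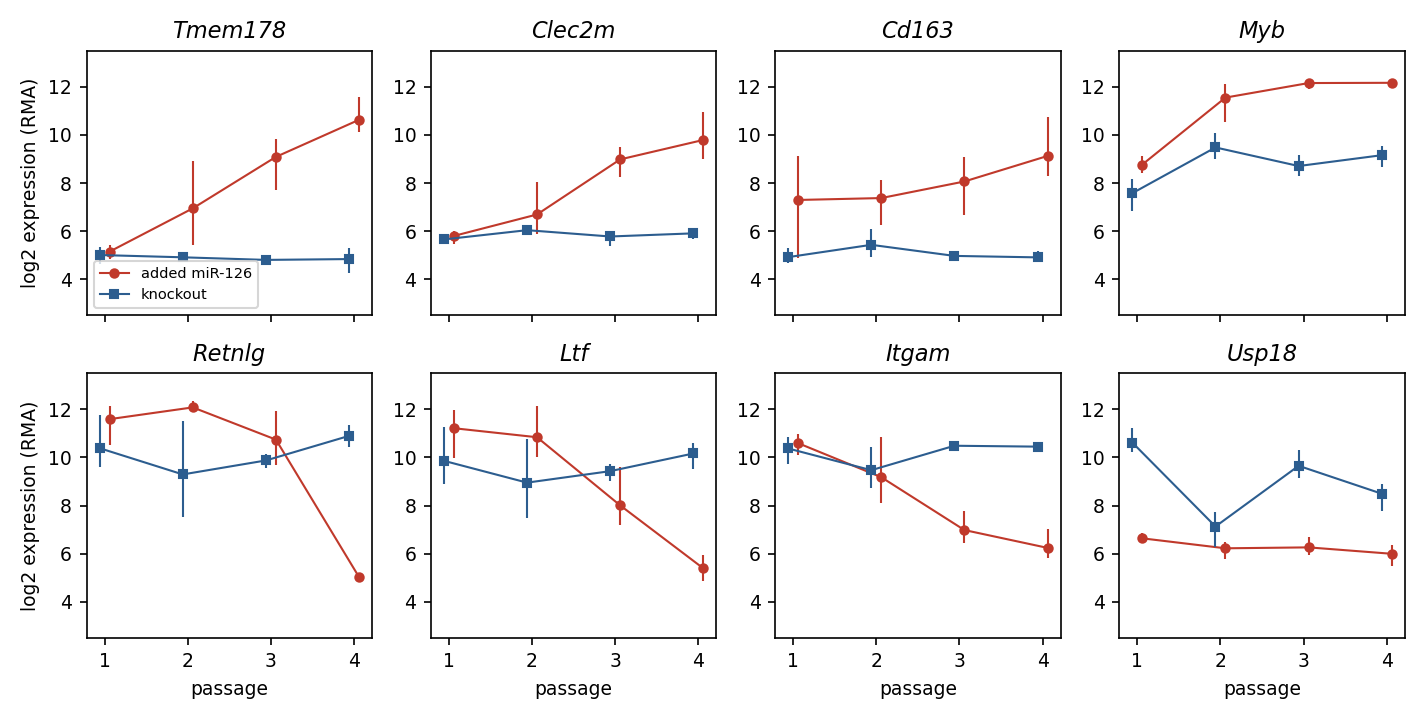
Mean RMA log2 expression of 8 genes at passages 1 to 4 with added miR-126 (circles) and in the knockout group (squares); bars run from the lowest to the highest of 3 mice. Tmem178 climbs with each passage in the added group, Retnlg stays high until passage 3 and reads 5.02 at passage 4, and Usp18 has the lower mean in the added group throughout.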

How the data were processed

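RNA of sorted donor cells was measured on Affymetrix Mouse Gene 2.0 ST arrays. The deposited values are log2 expression, made by the authors with RMA and Partek 6.0, per the submitters' processing notes; background and filter settings are not stated there. Of 27037 probe sets, 23521 had 1 gene symbol in the platform annotation, 1814 several and 1702 none. Where a gene had more than 1 probe set (1082 genes) the brightest on average stood for it, giving 22180 genes.

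All 39 arrays entered 1 model of 13 group means in limma 3.58.1 (R 4.3.3; 26 residual degrees of freedom), with Benjamini-Hochberg adjustment over all genes, a threshold of 0.05 and no minimum fold. A ± after a difference is its standard error. The number of arrays limits the precision; the median standard error at passage 4 was 0.222. The methods were tested on simulated data with independent noise. That simulation held no narrow arrays and no deviations shared by same-numbered mice, so it does not cover those features. Differences are added miR-126 minus knockout. Named genes were the 15 largest rises and 15 largest falls that passed without overlap (predicted genes, small RNAs, odorant receptors and pseudogenes left out), the 6 largest changes between passages in each direction, 7 genes named whatever their values (Egfl7, Errfi1, Spred1, Fzd7, Runx1t1, Runx1 and Myb), and up to 4 genes of each of 29 lists (527 symbols, 478 measured) with the smallest adjusted p, plus any gene needed for a count of 5 or fewer; 1 gene within this rule is not reported here. Members and lists were chosen with earlier results of these data known. Alternatives were other normalizations, a covariate for array SD, leaving out narrow arrays or single mice, a replicate block, array weights, another prior, filters and probe set rules. Same-numbered mice deviated together (r = 0.402, 0.403 and 0.635 of their deviations from the group means), although mice 1 and 2 of different groups also did (0.335 and 0.386), and the labels do not say what the numbers share. Figures used Python 3.11.15.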

Additional observations from a re-analysis of the deposited data

Results flagged for a closer look

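For 47 of 118 named genes, the difference between the groups changed from passage 1 to passage 4 by limma's test of the change itself. Over all genes 3.55% passed in that test. The named genes were picked partly for large changes or large passage 4 differences, so that share is no yardstick for their count. The threshold was an adjusted p under 0.05, with 3 mice in each of 4 groups. Mmp8 and Cebpe, which are not counted among the 118, did not pass in the change. Groups of 3 mice are too small for the test of single outlying mice.

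Upward changes, in which the difference moved towards added miR-126, were 5.65 for Tmem178, 3.77 for Tph1, 3.74 for Clec2m, 3.65 for Stag3, 3.42 for Cst7, 3.31 for Rbm24, 3.15 for Dscam, 2.85 for Gria3, 2.47 for Tns1, 2.29 for Myc, 2.14 for Klrb1c and 1.22 for Znrf3. The difference of Myc was -0.84 at passage 1, where it did not pass, and 1.46 at passage 4.

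Downward changes of neutrophil genes were -7.08 for Retnlg, -6.13 for Ltf, -5.45 for Ly6g, -5.30 for Camp, -4.43 for Itgam, -4.38 for Chil3 and -3.88 for Ngp. Among inflammatory genes they were -6.17 for Il1b, -5.96 for Cxcl2, -4.48 for Il1a, -3.85 for Nr4a1 and -3.12 for Tnfaip3. Among genes of monocytes, macrophages and antigen presentation they were -5.84 for Fn1, -5.87 for Klra2, -5.01 for Ace and for Adgre4, -4.86 for Fcgr4, -4.78 for Adgre1, -4.69 for Cd36, -4.51 for Pla2g7, -4.48 for Ms4a8a, -3.90 for Clec4a1, -3.60 for Clec4a3, -3.43 for H2-Aa, -3.22 for Vcan and -2.33 for Lyz2.

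Interferon-inducible Ifitm6 and Ifi204 changed by -6.56 and -4.84, and Scrg1 by -6.23. Smaller downward changes were -3.14 for Fas, -2.06 for Cd52, -1.70 for Hk2, -1.48 for Braf, -1.47 for Crk and -1.20 for Fzd7. With arrays scaled to a common SD all 47 changes kept their call. With array SD as a covariate 42 kept it, and those lost were Braf (-1.13), Cd52 (-1.45), Crk (-0.99), Fzd7 (-0.94) and H2-Aa (-3.09). Without arrays of an SD under 1.8, where mouse 3 is the only added mouse of passage 4, 38 kept it, and those lost were Camp (-3.97), Cd52 (-0.98), Clec4a3 (-2.53), Crk (-0.87), Fzd7 (-0.50), H2-Aa (-3.22), Hk2 (-0.98), Tph1 (3.15) and Vcan (-3.43). No change turned its direction in these 3 fits.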

How the results depend on the processing

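The probe set annotated to Mir126a kept its rise under every setting run, between 3.67 and 5.64. Of the 110 named genes that passed at passage 4, 73 kept call and direction under all 18 settings and 87 under every leave-one-out fit; 20 lost their call and 1 turned (Sdhb, 0.065) without arrays of an SD under 1.8, 12 were lost with array SD as a covariate, 11 after cyclic loess and 23 on the compared arrays alone (Ccnb2, Cpa3, Crk, Dntt, Ezh1, Fzd4, Gfi1, Grb2, Gsk3b, Il1a, Itgb3, Map2k1, Meis1, Pgam1, Prss57, Rnf43, Sdhb, Siglec1, Sox4, Spred1, Spred3, Tet1 and Tom1). Turned differences of genes that had not passed were Runx1 and Elane without the narrow arrays (0.28 and 0.11) and Egfl7 with array weights (-0.068), cyclic loess (-0.0056), the covariate (-0.16), without the narrow arrays (-0.21) and in the leave-one-out fits (-0.15 to 0.16, the lowest without mouse 2 of the added group). The passage 4 count of 2960 was 1087 on the compared arrays alone, 13310 with array weights and 1745 at 2-fold or more, and between 1484 and 8327 with 1 mouse left out. The passage 1 count of 129 was 3696 with array weights, 232 with the covariate, 258 without the narrow arrays and 55 to 133 with 1 mouse left out. The count of 788 for the change was 10402 with array weights and 458 to 4032 with 1 mouse left out, the highest without mouse 3 of the added group. With the replicate block 2778 genes passed at passage 4 (2492 on the compared arrays alone), 119 at passage 1 and 723 in the change, and of the named genes Ccnb2 alone lost its call in the fit on all arrays. Higher genes were 45.6% of those that passed after cyclic loess, 45.2% after quantile normalization and 35.5% with arrays scaled to a common SD. Array weights gave differences of 0.90 for Dntt, 1.13 for Sox4, 0.86 for Gfi1 and 0.43 for Rnf43. RMA values near the array floor bound how large a fall could be read.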
